A study of Homo sapiens with 12 samples.

Results

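The genes described here are 10 genes of fatty acid synthesis, namely ACLY, ACACA, FASN, ME1, ELOVL6, SCD, FADS1, FADS2, ACSL3 and LPIN1, chosen by symbol from the pathway and read across 4 groups of shRNA-treated cells. The array annotation used here names 9 of them, each by 1 transcript cluster, among 18417 genes tested, and ACSL3 was not analysed here. HEK293T cells, a human embryonic kidney line that carries a viral large T antigen, were transfected with shRNA plasmids and lysed 78 h later. The groups were shRNAs against both UBE4B and LSD1 (shUBE4B+shLSD1, called the double knockdown below), against UBE4B alone (shUBE4B), against LSD1 alone (shLSD1), and a nontargeting shRNA (shCTRL), with 3 Affymetrix Human Gene 1.0 ST arrays in each. UBE4B is a ubiquitin ligase that extends ubiquitin chains, and LSD1, encoded by KDM1A, is a histone demethylase. The study describes an aggregation-prone mutant SOD1 protein in these cells, so that all groups, shCTRL included, would carry it, but the sample labels do not name it. Knockdown was transient and left part of each target. Values are log2 signals from RMA, a procedure that sets all arrays to nearly 1 distribution, so they show the level of a gene relative to the other genes of its array. The arrays read whole dishes, in which a lower level in each cell and fewer cells with that level cannot be told apart. Per the labels the 3 arrays of each group are biological replicates, with no word on how the cultures were kept apart, and p-values measure the spread between these samples.

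Fatty acid synthesis turns citrate from the mitochondria into cytosolic acetyl-CoA, which is carboxylated to malonyl-CoA and built up to palmitate by a single large enzyme. Palmitate is then elongated and desaturated, activated to acyl-CoA and esterified into phospholipids and triglycerides. Most of these genes are known targets of the SREBP transcription factors, which are held in the endoplasmic reticulum by INSIG proteins together with SCAP, and in liver and fat also of ChREBP, which binds DNA as a dimer with MLX. Growing cell lines in culture make much of their own membrane lipid through this pathway.

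The targeted genes and the cell type were examined first. In log2 units UBE4B fell by 1.42 in double knockdown cells (limma adjusted p = 3.43e-06) and fell by 1.40 in shUBE4B cells (limma adjusted p = 7.88e-06), and KDM1A had log2 changes of -1.12 in the double knockdown and -1.26 in shLSD1 cells. The median log2 signal of an array lay between 7.00 and 7.06. Of 10 neural and renal progenitor genes that HEK293 cells are known to express, 7 had signals above the median of all genes, the highest being VIM. NES, PAX2 and EMX2 lay below it, at the 35.5, 40.7 and 42.2 percentiles of all genes. Of 10 colon epithelium markers 2 lay above it (CDX1 and CDX2, the latter at the 76.6 percentile). So did 1 of 7 adipocyte markers, 0 of 5 hepatocyte markers and 0 of 4 leukocyte markers. This is a rough guide because probes differ in brightness. Of these markers the colon gene EPCAM was lower in the double knockdown (log2 change -0.58) and in shUBE4B cells (-0.55), as was the neuronal filament INA (-0.35 and -0.30). The mean signal of EPCAM, 6.27, lay at the 27.2 percentile of all genes and was not shown to be above background. Its shCTRL arrays were at 6.59, 6.19 and 6.94. Of the 10 HEK293 genes 5 had negative and 5 positive changes in the double knockdown (median 0.01). In shUBE4B cells 6 were negative and 4 positive (median -0.08). The mean log2 signal of the colon list was 6.18 in the double knockdown, 6.15 in shUBE4B, 6.24 in shLSD1 and 6.25 in shCTRL cells, and the part of these markers in the results below was not tested.

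Among the 9 genes, ACLY, FADS1 and LPIN1 fell and ACACA rose when UBE4B was knocked down, with or without LSD1, by amounts between 0.25 and 0.42 on the log2 scale. FASN, ME1, ELOVL6, SCD and FADS2 did not pass the test in any comparison. Over the 4 groups together 4 of 9 genes passed limma's F test at an adjusted p of 0.05, against 10.4% of all genes tested. In the double knockdown 4 of 9 genes passed (1 higher and 3 lower), against 7.56% of all genes, of which 3.74% were higher and 3.83% lower. In shUBE4B cells the same 4 of 9 passed in the same directions, against 10.1% of all genes (5.59% higher and 4.47% lower). In shLSD1 cells 0 of 9 passed in limma, against 0.82% of all genes, and 0 passed the methods' t-test after Benjamini-Hochberg adjustment, while 3 of them (ACACA, FADS1 and SCD) had an unadjusted limma p under 0.05. These 3 comparisons share the shCTRL arrays. All 9 genes had mean signals above the median of all genes, and brighter genes passed more often. Without the 40% dimmest genes, 5 of 9 passed across the 4 groups, against 23.1% of the genes kept. In that setting 5 of 9 passed in the double knockdown, against 17.6%. In shUBE4B cells 4 of 9 then passed, against 20.9%, and in shLSD1 cells 1 of 9, against 3.3%. The median log2 change of the 9 genes was -0.13 in the double knockdown, -0.07 in shUBE4B and -0.09 in shLSD1 cells, beside -0.01, -0.03 and -0.01 over all genes.

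**Figure D1:**
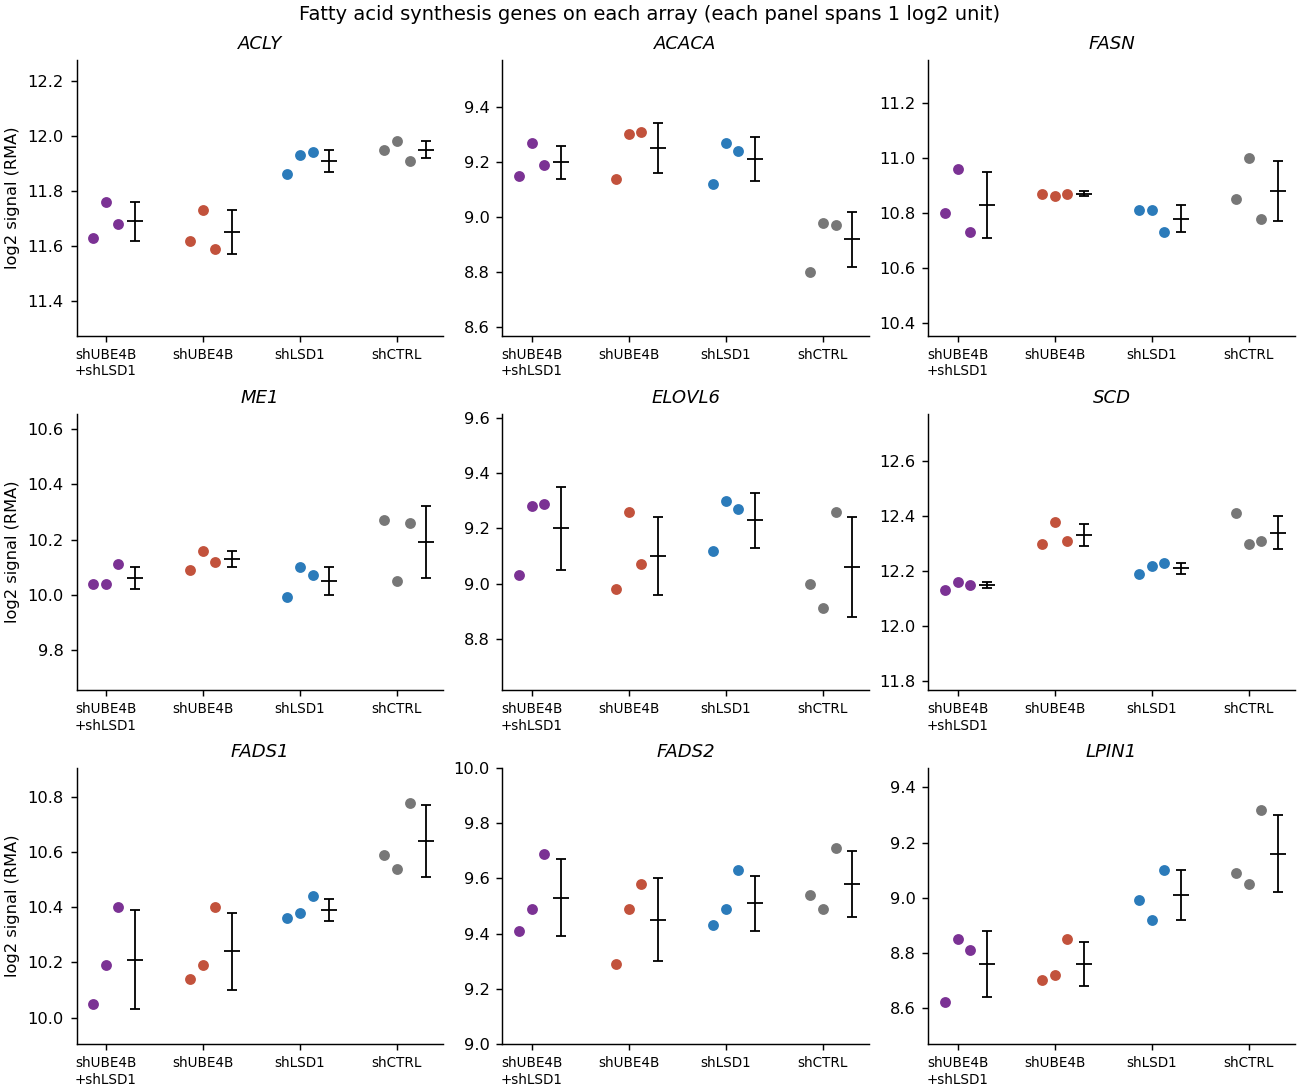
RMA log2 signal of the 9 measured fatty acid synthesis genes on every array (12 in all), grouped by shRNA, each group's mean and SD being drawn to the right of its 3 points; every panel spans 1 log2 unit. ACLY and LPIN1 are low in shUBE4B+shLSD1 and shUBE4B cells, and FADS1 is low and ACACA high in all 3 knockdown groups. For FASN, ME1, ELOVL6 and FADS2 each knockdown group overlaps shCTRL.

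The promoters of the genes that moved, and of the regulators described below, were read for 4 motifs on both strands, because SREBPs are known to act together with NF-Y and Sp1. The motifs were the sterol regulatory element TCACNCCAC, the E box CACGTG, which is its own reverse complement, the NF-Y motif CCAAT and the Sp1 motif GGGCGG, none of which contains another. Promoters were the 250 bases before and the 50 after each RefSeq start on GRCh38.p14, found for 8 of the 9 measured genes and for 14239 of the genes tested. The gene without a promoter sequence here was FASN, so its promoter was not read. The sterol regulatory element was in the promoters of 0 of these 8 genes and the E box in 0 of 8, against 1.5% and 10.9% of the tested genes. CCAAT was found in 4 of 8 (ACACA, ACLY, FADS2 and SCD), against 42.2%, and GGGCGG in 8 of 8, against 65.9%. A match is a run of letters and not a binding site, and a missing match says only that these letters are not in this window. One window is shown for each of the 4 genes that passed the test, with the motif in capitals: CCAAT or its reverse complement for ACLY and ACACA, and the reverse complement of GGGCGG for FADS1 and LPIN1, which had no CCAAT.
ACLY, minus strand, chr17:41919029-41919058: ggaacgcgtgtggCCAATcgcggggccgtt
ACACA, minus strand, chr17:37359306-37359335: gcgccgccctcccATTGGctgccgctgagc
FADS1, minus strand, chr11:61817191-61817220: tcaaccccggccCCGCCCacccttcctgcg
LPIN1, plus strand, chr2:11746532-11746561: gtccccctcgcaCCGCCCcgcttgccccgc
The motifs begin 23 bases before an annotated start of ACLY, 226 before a start of ACACA, 205 before the start of FADS1 and 88 before a start of LPIN1.

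ACLY, ATP citrate lyase, makes the cytosolic acetyl-CoA from which fatty acids and sterols are built. Its log2 signal (transcript cluster 8015460, chromosome 17) was 11.63, 11.76 and 11.68 on the double knockdown arrays, 11.62, 11.73 and 11.59 on the shUBE4B arrays, 11.86, 11.93 and 11.94 on the shLSD1 arrays, and 11.95, 11.98 and 11.91 on the shCTRL arrays. Every array with shRNA against UBE4B lay below every array without it, and the shLSD1 and shCTRL arrays overlapped. ACLY fell by 0.25 in the double knockdown (95% interval -0.39 to -0.12, limma adjusted p = 0.0233), to 0.839 of the shCTRL level. It fell by 0.30 in shUBE4B cells (95% interval -0.43 to -0.17, limma adjusted p = 0.00988), to 0.814 of the shCTRL level. In shLSD1 cells the log2 change was -0.04 (95% interval -0.17 to 0.09). Among the 22 alternatives that give an adjusted p, the call in shUBE4B cells held in 20 and that in the double knockdown in 17, being lost for instance without shUBE4B+shLSD1 replicate 1 or 3 or without shCTRL replicate 1. Under a rule of an unadjusted p with a 1.2-fold change, by the methods' t-test or by limma, the change of ACLY in the double knockdown was too small to be called, and 3 of the 9 genes were.

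ACACA, acetyl-CoA carboxylase alpha, makes malonyl-CoA in the committed step of the pathway, and it was the 1 gene of the 9 that rose. Its log2 signal (transcript cluster 8014487, chromosome 17) was 9.15, 9.27 and 9.19 in the double knockdown, 9.14, 9.30 and 9.31 in shUBE4B cells, 9.12, 9.27 and 9.24 in shLSD1 cells, and 8.80, 8.98 and 8.97 in shCTRL cells. All 9 knockdown arrays lay above all 3 shCTRL arrays, and the 3 knockdown groups overlapped one another. The log2 change was 0.29 in the double knockdown (95% interval 0.13 to 0.45, limma adjusted p = 0.0318), 0.34 in shUBE4B cells (0.18 to 0.50, limma adjusted p = 0.0135) and 0.29 in shLSD1 cells (0.13 to 0.45, limma adjusted p = 0.0902). The last did not pass, with an unadjusted limma p of 0.00162 beside one of 0.00186 in the double knockdown, since the adjustment is stricter in a comparison with fewer low p-values (2465 genes under 0.05 in shLSD1 cells and 3818 in the double knockdown). ACACA passed in shLSD1 cells in 4 of 22 alternatives, with the replicate number as a block (limma adjusted p = 0.0288), with trend and robust settings (0.0440), without the 40% dimmest genes (0.0396) and with array weights. The double knockdown was below the sum of both single changes by 0.34 (difference of differences -0.34, 95% interval -0.57 to -0.11), with an unadjusted limma p of 0.00624 and an adjusted p of 0.249. The call was lost without shUBE4B replicate 2 or 3 for shUBE4B cells, and without shCTRL replicate 1 or any 1 of the double knockdown arrays for the double knockdown.

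FASN, the fatty acid synthase that joins malonyl-CoA units into palmitate, showed no detectable change. The log2 signal of FASN (transcript cluster 8019392, chromosome 17) was 10.80, 10.96 and 10.73 in the double knockdown, 10.87, 10.86 and 10.87 in shUBE4B, 10.81, 10.81 and 10.73 in shLSD1, and 10.85, 11.00 and 10.78 in shCTRL cells. Each knockdown group overlapped shCTRL, and all shUBE4B arrays lay above all shLSD1 arrays. The intervals of the log2 change allowed -0.20 to 0.11 in the double knockdown, -0.17 to 0.15 in shUBE4B and -0.25 to 0.06 in shLSD1 cells, so that a change of the size seen in ACLY, FADS1 or LPIN1 in shUBE4B cells lay outside the interval there. ME1, the cytosolic malic enzyme that supplies NADPH for the pathway (transcript cluster 8127854, chromosome 6), averaged 10.06 ± 0.04 in the double knockdown, 10.13 ± 0.03 in shUBE4B, 10.05 ± 0.05 in shLSD1 and 10.19 ± 0.13 in shCTRL cells (SD, n = 3 each). Its shCTRL replicate 2 was at 10.05, within the knockdown arrays, and the other shCTRL arrays were at 10.26 and 10.27, above them. The log2 change of ME1 was -0.13 in the double knockdown (limma adjusted p = 0.324) and -0.14 in shLSD1 cells (limma adjusted p = 0.404).

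FADS1, the delta-5 desaturase that completes arachidonic and eicosapentaenoic acid, had the largest change of the 9 genes in the double knockdown. Its log2 signal (transcript cluster 7948612, chromosome 11) was 10.05, 10.19 and 10.40 in the double knockdown, 10.14, 10.19 and 10.40 in shUBE4B cells, 10.36, 10.38 and 10.44 in shLSD1 cells, and 10.59, 10.54 and 10.78 in shCTRL cells. All knockdown arrays lay below all shCTRL arrays, and the shLSD1 arrays overlapped the upper end of the other knockdown arrays. FADS1 fell by 0.42 in the double knockdown (95% interval -0.63 to -0.21, limma adjusted p = 0.0186) and by 0.40 in shUBE4B cells (95% interval -0.61 to -0.19, limma adjusted p = 0.0229), to 0.746 and 0.760 of the shCTRL level. In shLSD1 cells its log2 change was -0.24 (95% interval -0.45 to -0.03, limma adjusted p = 0.294). The call was lost without shCTRL replicate 3 in both comparisons, without shUBE4B+shLSD1 replicate 1 or 2 in the double knockdown, and without shUBE4B replicate 1 or 2 in shUBE4B cells.

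FADS2, the delta-6 desaturase, acts before FADS1 on the same fatty acids, and its gene lies beside FADS1 on the opposite strand. On the arrays FADS2 (transcript cluster 7940565) had log2 signals of 9.41, 9.49 and 9.69 in the double knockdown, 9.29, 9.49 and 9.58 in shUBE4B, 9.43, 9.49 and 9.63 in shLSD1, and 9.54, 9.49 and 9.71 in shCTRL cells. All groups overlapped, with log2 changes of -0.05 in the double knockdown (95% interval -0.26 to 0.15), -0.13 in shUBE4B cells (-0.33 to 0.08) and -0.07 in shLSD1 cells (-0.27 to 0.14). Whether FADS1 and FADS2 differ in their response was not tested. ELOVL6, which elongates palmitate to stearate (transcript cluster 8102342, chromosome 4), ranged from 8.91 to 9.30 over the 12 arrays and overlapped between all groups. Its log2 change was 0.14 in the double knockdown (95% interval -0.08 to 0.37), 0.05 in shUBE4B (-0.18 to 0.27) and 0.18 in shLSD1 cells (-0.05 to 0.40), the widest intervals of the 9 genes.

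SCD, stearoyl-CoA desaturase, which makes oleate, did not pass the test, but its arrays were ordered by the presence of shRNA against LSD1. SCD (transcript cluster 7929816, chromosome 10) had log2 signals of 12.13, 12.16 and 12.15 in the double knockdown, 12.30, 12.38 and 12.31 in shUBE4B cells, 12.19, 12.22 and 12.23 in shLSD1 cells, and 12.41, 12.30 and 12.31 in shCTRL cells. Every array with shRNA against LSD1 lay below every array without it, and shUBE4B and shCTRL arrays overlapped. The share of all genes ordered in this way was not counted, so the order is only a description. The log2 change was -0.19 in the double knockdown (95% interval -0.31 to -0.07, limma adjusted p = 0.0530), -0.01 in shUBE4B cells (-0.13 to 0.11) and -0.13 in shLSD1 cells (-0.25 to -0.01, limma adjusted p = 0.325). Against shUBE4B cells the double knockdown had a log2 change of -0.18 (95% interval -0.30 to -0.06, limma adjusted p = 0.222). In 5 of 22 alternatives SCD passed in the double knockdown against shCTRL, among them the fit without shCTRL replicate 2.

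LPIN1, lipin 1, is the phosphatidate phosphatase that makes diacylglycerol for triglycerides and phospholipids. Its log2 signal (transcript cluster 8040340, chromosome 2) was 8.62, 8.85 and 8.81 in the double knockdown, 8.70, 8.72 and 8.85 in shUBE4B cells, 8.99, 8.92 and 9.10 in shLSD1 cells, and 9.09, 9.05 and 9.32 in shCTRL cells. As for ACLY, the arrays with shRNA against UBE4B all lay below those without it, and shLSD1 and shCTRL arrays overlapped. LPIN1 fell by 0.40 both in the double knockdown (95% interval -0.59 to -0.21, limma adjusted p = 0.0145) and in shUBE4B cells (95% interval -0.59 to -0.21, limma adjusted p = 0.0129). In shLSD1 cells its log2 change was -0.15 (95% interval -0.34 to 0.04, limma adjusted p = 0.506). The call was lost without shUBE4B+shLSD1 replicate 1 in the double knockdown and without shUBE4B replicate 1 or 2 in shUBE4B cells.

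**Figure D2:**
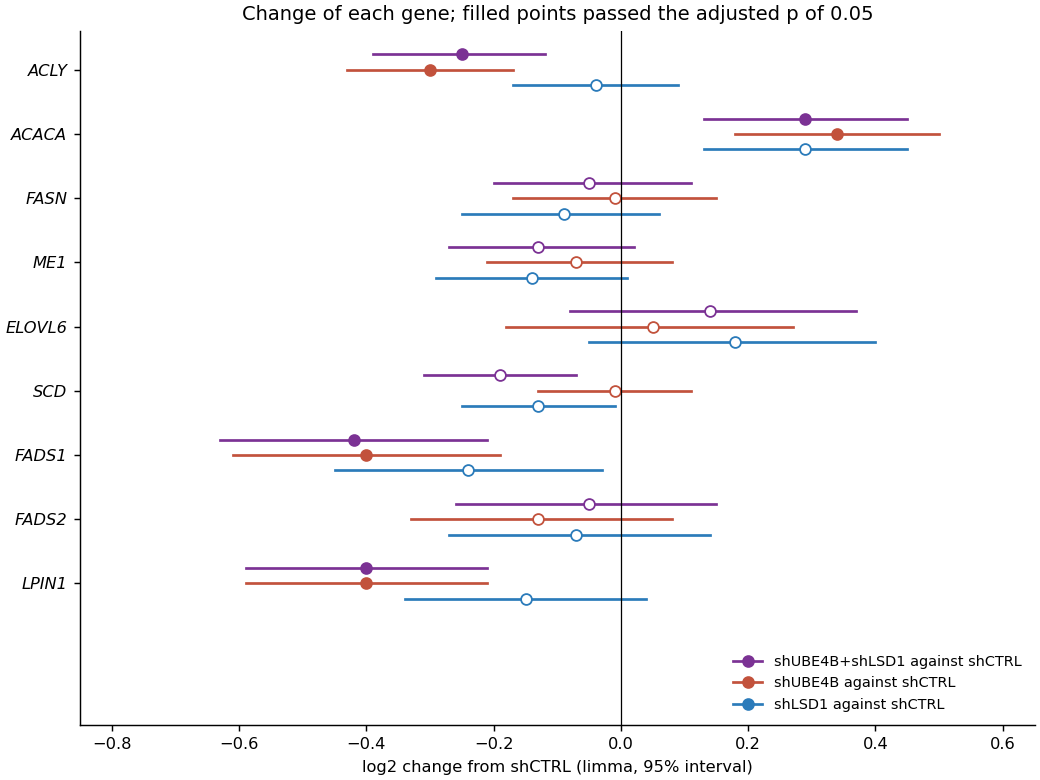
Log2 change from shCTRL of each of the 9 genes in the 3 knockdown groups, with its 95% interval from limma; filled points passed an adjusted p of 0.05. ACLY, FADS1 and LPIN1 lie below 0 and ACACA above 0 in shUBE4B+shLSD1 and shUBE4B cells, and no point of shLSD1 cells is filled.

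Genes whose groups did not overlap were also counted. In the double knockdown 5 of 9 genes had all 3 arrays beyond all 3 shCTRL arrays (ACACA above, and ACLY, FADS1, LPIN1 and SCD below), against 21.9% of all genes (10.6% above and 11.3% below). In shUBE4B cells 4 of 9 did (ACACA above, and ACLY, FADS1 and LPIN1 below), against 30.3% of all genes (14.2% above and 16.1% below). In shLSD1 cells 3 of 9 did (ACACA above, FADS1 and SCD below), against 16.6% (8.53% above and 8.11% below). For the difference between the double and the single knockdowns, 0 of 9 genes passed in limma or in the methods' t-test after Benjamini-Hochberg adjustment. Against shUBE4B cells 0.147% of all genes passed, and 1 of the 9 genes (SCD) had an unadjusted limma p under 0.05. Against shLSD1 cells 2.79% of all genes passed, and ACLY (log2 change -0.22, limma adjusted p = 0.0849) and LPIN1 (-0.25, limma adjusted p = 0.170) had an unadjusted p under 0.05. A departure of the double knockdown from the sum of both single ones passed for 0% of all genes in limma, with an unadjusted p under 0.05 for 2411 genes, of the 9 genes only ACACA.

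For each gene that passed across the 4 groups, the gene with the most similar profile among all tested was found by the root mean square difference over the 12 arrays, each gene centred on its mean. For ACLY it was PTMS, parathymosin (0.033 on the log2 scale), and for ACACA it was VPS13B, a protein of lipid transfer and the Golgi (0.046). For FADS1 it was PPP2R2C, a regulatory subunit of protein phosphatase 2A (0.058), and for LPIN1 the ubiquitin hydrolase UCHL1 (0.063). The root mean square deviation of the genes themselves was 0.138 for ACLY, 0.151 for ACACA, 0.199 for FADS1 and 0.193 for LPIN1. Likeness over 12 arrays of 4 groups is a description of these libraries.

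Of the regulators of the pathway, INSIG1, SREBF2 and MLX fell in both groups with shRNA against UBE4B. Of 20 measured genes of SREBP, LXR and ChREBP regulation, 0 rose and 3 fell in the double knockdown, 0 rose and 3 fell in shUBE4B cells, and 0 passed limma in shLSD1 cells, where 1 (MLXIP) had an unadjusted p under 0.05. The shares of all genes that fell were 3.83% in the double knockdown and 4.47% in shUBE4B cells. The median of the list was near 0 in each comparison (-0.02, -0.01 and -0.01), close to that of all genes. INSIG1, which keeps SCAP and the SREBPs in the endoplasmic reticulum and is itself a known SREBP target, had log2 signals of 9.34, 9.52 and 9.55 in the double knockdown, 9.42, 9.55 and 9.50 in shUBE4B, 9.84, 9.98 and 9.99 in shLSD1, and 9.94, 10.06 and 10.05 in shCTRL cells. All arrays with shRNA against UBE4B lay below all others. INSIG1 fell by 0.55 in the double knockdown (limma adjusted p = 0.000562) and by 0.53 in shUBE4B cells (limma adjusted p = 0.00107), to 0.683 and 0.694 of the shCTRL level.

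MLX, the partner of ChREBP, was close to constant in shCTRL cells, at 10.02, 10.01 and 10.01, and was 9.37, 9.63 and 9.50 in the double knockdown, 9.46, 9.51 and 9.44 in shUBE4B cells and 10.01, 9.94 and 9.92 in shLSD1 cells. It fell by 0.52 in the double knockdown (limma adjusted p = 0.000562) and by 0.54 in shUBE4B cells (limma adjusted p = 0.000606), with no overlap with the arrays lacking shRNA against UBE4B. SREBF2, the SREBP best known for sterol synthesis, was 9.40, 9.55 and 9.56 in the double knockdown, 9.61, 9.63 and 9.54 in shUBE4B, 9.77, 9.68 and 9.80 in shLSD1 and 9.91, 9.77 and 9.96 in shCTRL cells. The double knockdown and shUBE4B arrays were below all others. SREBF2 fell by 0.38 in the double knockdown (limma adjusted p = 0.00517) and by 0.29 in shUBE4B cells (limma adjusted p = 0.0216). That last call was lost without any 1 of the 3 shUBE4B arrays or without shCTRL replicate 1 or 3.

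SREBF1, the SREBP best known for fatty acid synthesis, ranged from 8.05 to 8.32 in the double knockdown, which took in all its other arrays. Its log2 change was -0.01 in the double knockdown (95% interval -0.17 to 0.16), 0.00 in shUBE4B cells (-0.17 to 0.16) and 0.03 in shLSD1 cells (-0.13 to 0.20). SCAP, the escort of the SREBPs, had log2 changes of 0.12 in the double knockdown, 0.06 in shUBE4B and 0.09 in shLSD1 cells, with limma adjusted p of 0.350, 0.615 and 0.622. RNA levels do not show how much SREBP is cleaved.

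Of the regulators that fell, SREBF2 held the sterol regulatory element, and INSIG1 and MLX held the E box. The promoter of SREBF1, which did not pass the test, held neither. Neither was found in the 8 synthesis genes whose promoters were read (FASN was not), against 1.5% and 10.9% of the tested genes. At such shares no contrast between these genes and the regulators is drawn. The windows are shown with the motif in capitals. The regulators shown were picked for their change, so their motifs are only a description.
SREBF2, plus strand, chr22:41832961-41832990: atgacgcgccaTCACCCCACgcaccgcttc
INSIG1, plus strand, chr7:155297811-155297840: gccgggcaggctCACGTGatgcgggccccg
MLX, plus strand, chr17:42567038-42567067: gcgggcgcgggtCACGTGggcacgccaccc
The motif begins 133 bases before the annotated start in SREBF2, 55 in INSIG1 and 50 in MLX. All 3 promoters also held CCAAT or its reverse complement and the Sp1 motif.

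**Figure D3:**
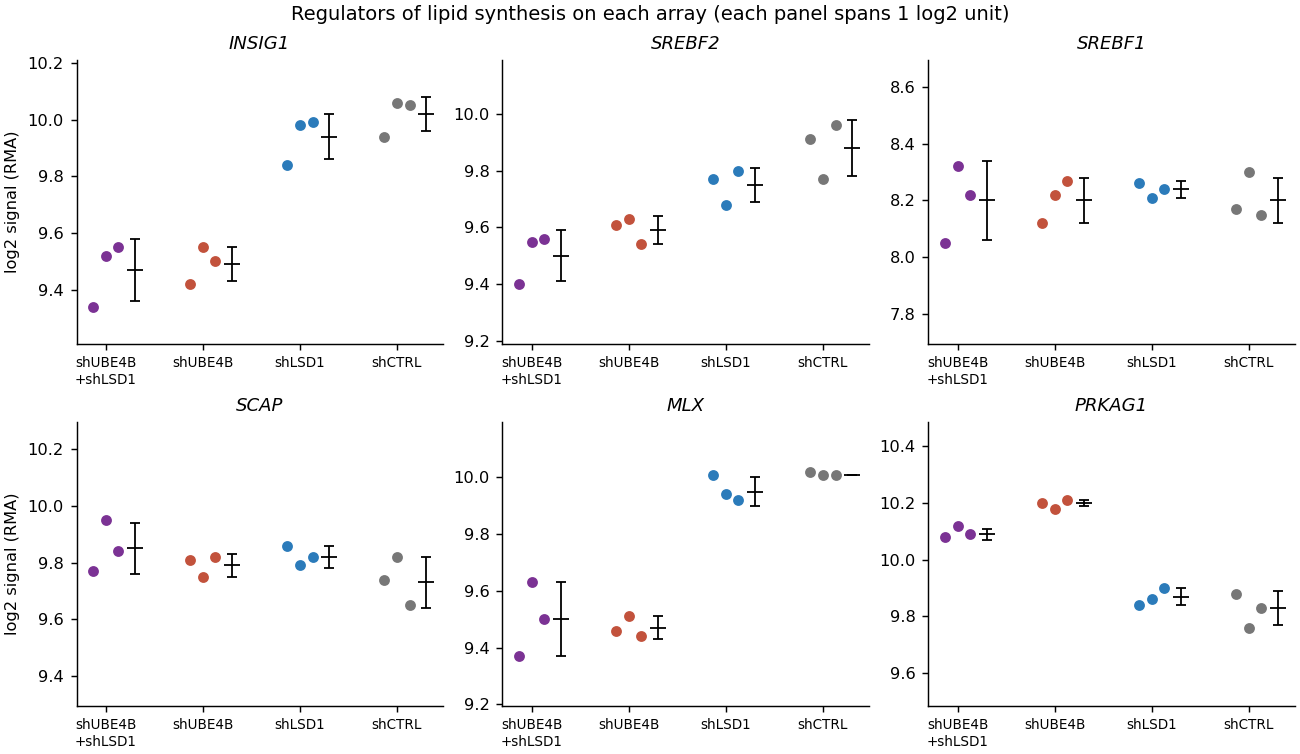
RMA log2 signal of 5 regulators of lipid synthesis (INSIG1, SREBF2, SREBF1, SCAP, MLX) and the AMPK subunit PRKAG1 on every array (12 in all), grouped by shRNA, each group's mean and SD being drawn to the right of its points; every panel spans 1 log2 unit. INSIG1, SREBF2 and MLX are low and PRKAG1 is high in shUBE4B+shLSD1 and shUBE4B cells, while SREBF1 and SCAP overlap across groups.

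AMPK, the energy sensor, phosphorylates and inhibits acetyl-CoA carboxylase. Of 11 genes of its subunits and upstream kinases 1 rose and 0 fell in the double knockdown and in shUBE4B cells, where 3.74% and 5.59% of all genes rose. This was PRKAG1, the gamma-1 subunit, which rose by 0.27 in the double knockdown (limma adjusted p = 0.00994) and by 0.37 in shUBE4B cells (limma adjusted p = 0.00168). In shLSD1 cells 0 passed limma (2 at an unadjusted p under 0.05), and the log2 change of PRKAG1 was 0.04 (limma adjusted p = 0.816).

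Beyond the 9 genes, 28 other genes of fatty acid synthesis, elongation and desaturation were measured. Of these 28, 0 rose and 2 fell in the double knockdown, and 1 rose and 2 fell in shUBE4B cells. In shLSD1 cells 0 of the 28 passed limma (3 at an unadjusted p under 0.05). The medians were -0.04, -0.04 and -0.02. Of all genes 7.56% passed in the double knockdown, 10.1% in shUBE4B cells and 0.82% in shLSD1 cells, so the counts were read against those shares. Those that fell in the double knockdown were CBR4, a subunit of the mitochondrial ketoacyl reductase (-0.39, limma adjusted p = 0.0239), and IDH1, which makes cytosolic NADPH (-0.27, limma adjusted p = 0.0289). In shUBE4B cells CBR4 (-0.35) and SLC25A1, the carrier that exports citrate from mitochondria (-0.23), fell, and MECR, the mitochondrial enoyl reductase, rose by 0.23 (limma adjusted p = 0.0427). SLC25A1 had log2 changes of -0.20 in the double knockdown (limma adjusted p = 0.0535) and -0.21 in shLSD1 cells (limma adjusted p = 0.110).

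Leaving aside LPIN1, described above, 22 genes of acyl-CoA and glycerolipid synthesis were measured. Of these 22, 1 rose and 2 fell in the double knockdown, and 1 rose and 3 fell in shUBE4B cells. In shLSD1 cells 0 of the 22 passed limma (3 at an unadjusted p under 0.05). Of all genes 7.56%, 10.1% and 0.82% passed in either direction. CDS1, which makes CDP-diacylglycerol, rose by 0.38 in the double knockdown and by 0.40 in shUBE4B cells (limma adjusted p = 0.0210 and 0.0145). The acyl-CoA synthetase ACSL6 (-0.30 and -0.32) and the lipid droplet protein PLIN3 (-0.29 and -0.31) fell in both. The mean signal of ACSL6, 6.49, lay at the 30.7 percentile of all genes, and with no detection call on the arrays it was not shown to be above background. GPAT4, a glycerol phosphate acyltransferase, fell in shUBE4B cells (-0.29, limma adjusted p = 0.0115), and its log2 change in the double knockdown was -0.20 (limma adjusted p = 0.0628).

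In cholesterol synthesis and uptake, which shares acetyl-CoA and the SREBPs with the fatty acid branch, 0 of 17 measured genes rose and 8 fell in the double knockdown, beside 3.83% of all genes that were lower there. In shUBE4B cells 0 rose and 3 fell, beside 4.47% of all genes, and in shLSD1 cells 0 passed limma (3 at an unadjusted p under 0.05). Of the 17 genes 16 had mean signals above the median of all genes, and brighter genes passed more often. Without the 40% dimmest genes, 994 of 11050 genes were lower in the double knockdown and 977 in shUBE4B cells. The 17 genes were not counted again in that setting. The median log2 change was -0.19, -0.17 and -0.06, and 16, 15 and 13 of the 17 genes had negative changes in the double, shUBE4B and shLSD1 knockdowns, comparisons that share the shCTRL arrays. IDI1, the isopentenyl diphosphate isomerase, fell by 0.64 in the double knockdown (limma adjusted p = 0.0176), HMGCS1, which makes HMG-CoA, by 0.48 (limma adjusted p = 0.00200) and the sterol carrier STARD4 by 0.45 (limma adjusted p = 0.0178). In shUBE4B cells HMGCS1 (-0.39), MVD (-0.33) and MSMO1 (-0.32), all enzymes of the pathway, fell. IDI1 had log2 changes of -0.46 in shUBE4B cells (limma adjusted p = 0.0665) and -0.33 in shLSD1 cells (limma adjusted p = 0.350). Its shCTRL arrays were scattered, at 8.91, 8.35 and 8.91, and its double knockdown arrays were at 7.84, 8.30 and 8.10.

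Fatty acid oxidation runs the opposite way, and its entry step is inhibited by malonyl-CoA. Of 23 measured genes, 0 rose and 2 fell in the double knockdown, 3 rose and 1 fell in shUBE4B cells, and 0 rose and 1 fell in shLSD1 cells, beside the same 7.56%, 10.1% and 0.82% of all genes. CPT1A, the carnitine palmitoyltransferase of that entry step, fell in every knockdown and was the 1 gene of all these lists past the test in shLSD1 cells. Its log2 signal was 7.22, 7.41 and 7.32 in the double knockdown, 7.43, 7.40 and 7.40 in shUBE4B, 7.21, 7.39 and 7.29 in shLSD1, and 7.57, 7.65 and 7.80 in shCTRL cells, with all knockdown arrays below all shCTRL arrays. It fell by 0.36 in the double knockdown (limma adjusted p = 0.0103), by 0.27 in shUBE4B cells (0.0380) and by 0.38 in shLSD1 cells (0.0335). These calls held in 20, 11 and 11 of 22 alternatives, and those of the single knockdowns were lost without any 1 of their own 3 arrays.

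The dienoyl-CoA reductase DECR1 rose by 0.47 in shUBE4B cells (limma adjusted p = 0.00242), as did ETFDH, which passes electrons from acyl-CoA dehydrogenases to ubiquinone (0.43, limma adjusted p = 0.0135), and SLC25A20, the carnitine carrier (0.32, limma adjusted p = 0.00872). In the double knockdown their log2 changes were 0.26, 0.22 and 0.17 and did not pass (limma adjusted p = 0.0573, 0.210 and 0.148). ACADL, the long-chain acyl-CoA dehydrogenase, had log2 signals of 5.43, 5.62 and 5.75 in the double knockdown and 5.88, 5.98 and 6.06 in shCTRL cells, and was lower in the double knockdown (limma adjusted p = 0.0218). The mean signal of ACADL lay at the 20.2 percentile of all genes, and it too was not shown to be above background. DECR1 lay at the 39.5 percentile and CPT1A at the 45.7 percentile, likewise without a detection call. The medians of the list were 0.00, 0.03 and 0.00.

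**Figure D4:**
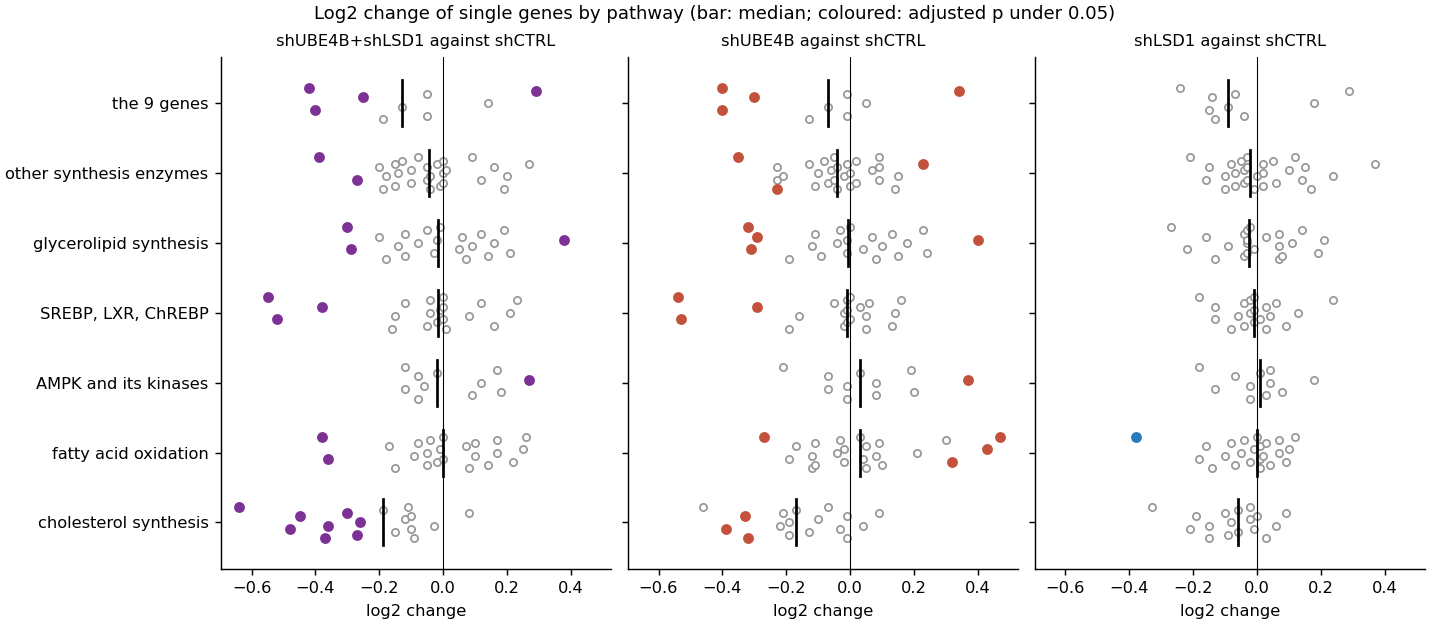
Log2 change from shCTRL of every measured gene of 7 lipid gene lists in the 3 knockdown groups; each point is a gene, coloured points passed a limma adjusted p of 0.05, and the black bar is the median of the list. The cholesterol list has medians of -0.19, -0.17 and -0.06 and 8, 3 and 0 coloured points, and the other lists have medians between -0.13 and 0.03.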

How the data were processed

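RNA was measured on 12 Affymetrix Human Gene 1.0 ST arrays, 3 in each of 4 groups. The deposited values are log2 signals, which the authors made with RMA in Partek (background correction, quantile normalization and summary of probes by transcript cluster), with annotation on hg19 per the labels. Versions are not given in the sources used here. Of 33297 transcript clusters, 19460 had 1 gene symbol and 1754 several, which were left out. Symbols were updated with RefSeq names, and the brightest cluster stood for a gene, giving 18417 genes. Groups were compared with limma 3.58.1 in R 4.3.3 (lmFit, eBayes, 4 group means, 8 residual and 5.13 prior degrees of freedom), with Benjamini-Hochberg adjustment over all genes and calls at 0.05. The procedure was tested on simulated data. The members and gene lists were chosen with earlier results of these data known. From each other pathway list up to 3 genes higher and 3 lower per comparison were named, largest change first, with SREBF1, SREBF2, INSIG1 and SCAP whatever their values, and markers that passed the test were named after their values were seen. Promoter sequences are from RefSeq on GRCh38.p14. Alternatives were each array left out, a replicate block, eBayes with trend and robust settings, array weights, only the 6 arrays compared, median-centred arrays, a second quantile normalization, averaging the clusters of a gene, leaving out the dimmest 40% of genes, testing every transcript cluster, and the methods' t-test. Figures were drawn with matplotlib 3.10.9. The number of arrays limits the precision.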

Additional observations from a re-analysis of the deposited data

How the results depend on the processing

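The direction of the log2 change of ACACA, ACLY, FADS1 and LPIN1 was the same in all 22 alternatives of each comparison with shCTRL. Adjusted p ranged in shUBE4B cells from 0.00327 to 0.162 for ACACA, from 0.000563 to 0.0980 for ACLY, from 0.00416 to 0.196 for FADS1 and from 0.00498 to 0.159 for LPIN1, and in the double knockdown from 0.00648 to 0.204, 0.00180 to 0.132, 0.00264 to 0.273 and 0.00543 to 0.244. With only the 6 arrays compared, 0 of the 9 genes passed in the double knockdown and 1 (LPIN1) in shUBE4B cells, and with the methods' t-test after adjustment 0 and 0. With all transcript clusters 2 of 9 passed across the 4 groups. In shLSD1 cells 1 gene (ACACA) passed with the replicate block, with trend and robust settings, with array weights, without the 40% dimmest genes, and at a 1.2-fold change with an unadjusted p, in the methods' t-test and in limma, the limma rule being chosen after seeing the data. Trend and robust settings gave 1 gene (SCD) for the double knockdown against shUBE4B. They gave 1 (ACLY) against shLSD1, as did array weights and removal of the dimmest genes. With 1 array left out, 2 to 4 genes passed across the 4 groups, 0 to 5 in the double knockdown (0 without shUBE4B+shLSD1 replicate 1, 2 without its replicate 2 or 3 or without shCTRL replicate 1, 5 without shCTRL replicate 2), 1 to 4 in shUBE4B cells (1 without shUBE4B replicate 2, 2 without its replicate 1), and 0 to 0 in the other comparisons. The cause was not tested.

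Signs turned only for changes near 0 that did not pass. Leaving out 1 array gave log2 changes for FASN of -0.11 to 0.01 in the double knockdown and -0.06 to 0.05 in shUBE4B cells, for SCD of -0.04 to 0.02 and for ELOVL6 of -0.03 to 0.15 in shUBE4B cells, for FADS2 of -0.13 to 0.01 in the double knockdown, and for SREBF1 of -0.07 to 0.07 in the double knockdown and -0.04 to 0.05 in shUBE4B cells. Array weights gave 0.02 for FASN in shUBE4B cells and, for SREBF1, 0.01 in the double knockdown and 0.02 in shUBE4B cells, and median-centred arrays gave 0.00 and 0.01 for SREBF1.

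Deviations from group means correlated between groups by 0.05 to 0.21 for replicate 1, -0.08 to 0.08 for 2 and 0.06 to 0.33 for 3. Replicate 1 against 3 gave -0.34 to -0.08. The main fit left this shared structure out. With the number as a block, the same 4 genes passed in the double knockdown and in shUBE4B cells. Replicate 3 was highest for FADS1 and FADS2 in all 4 groups.

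Over all genes tested, 1911 passed across the 4 groups, and 2939 with array weights. In the double knockdown 1393 passed, 420 with only the 6 arrays, and 48 with the methods' t-test after adjustment. In shUBE4B cells 1854 passed, and 693 and 46 with these settings. In shLSD1 cells 151 passed, 2 and 1 with these settings, 58 with all transcript clusters, 237 with the replicate block, 362 with trend and robust settings, 234 with array weights, 365 without the dimmest genes, and 485 and 775 at an unadjusted p with a 1.2-fold change in the methods' t-test and in limma. Against shUBE4B cells the double knockdown gave 27 genes, 86 with trend and robust settings, 125 with array weights, 88 without the dimmest genes, 1 with the adjusted t-test, and 568 and 759 at the unadjusted rules. Against shLSD1 cells it gave 513, and 781, 896, 801, 9, 835 and 1028 with these settings. The difference of differences gave 0, and 1, 5 and 1 with the replicate block, trend and robust settings, and without the dimmest genes. With 1 array left out these ranged, in the order given, over 1153 to 2311, 862 to 1549, 909 to 2328, 15 to 198, 8 to 135, 159 to 808 and 0.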
